A study of Mus musculus with 6 samples.

Results

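The genes described here encode heat shock proteins and the cochaperones that work with them, in CD8+ T cells with low surface CD44 from wild-type and sanroque mice. They were taken by symbol from the platform annotation: every gene whose symbol begins with Hspa, Hspb, Hspd, Hspe, Hsph, Hsp90, Dnaja, Dnajb or Dnajc, or with Cct and a digit, and Tcp1. This gave 82 of the 19938 genes measured. They comprised 13 HSP70 and HSP110 genes, 2 HSP90 genes, 2 mitochondrial chaperonin genes, 10 genes of the cytosolic chaperonin TRiC, 10 genes with Hspb symbols, and 4 Dnaja, 13 Dnajb and 28 Dnajc genes. Hsp90ab1 was not analysed here.

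The wild-type group was Roquin+/+ and the sanroque group Roquinsan/san, homozygous for the sanroque allele of the RNA-binding protein Roquin, with 3 biological replicates each, all C57BL/6 and 10 weeks old. Cells had been isolated by flow sorting out of lymph nodes and spleens, and each sample was measured on its own Affymetrix array. The allele is carried by the whole animal, so the other cells of the mouse were mutant too. Values are log2 intensities, and a difference was called where the p of the limma test, adjusted by Benjamini-Hochberg over all genes, was below 0.05.

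Heat shock proteins are molecular chaperones that bind unfolded polypeptides. HSP70 proteins do so in cycles of ATP hydrolysis that are started by partners with a J domain, the DNAJ proteins, and reset by nucleotide exchange factors such as the HSP110 protein Hsph1. HSP90 takes over late folding states of kinases and receptors, and the ring-shaped chaperonins, TRiC in the cytosol and HSP60 with HSP10 in mitochondria, enclose whole chains. Many of these genes are induced together by heat shock factor 1 when proteins unfold, those of the endoplasmic reticulum (ER) are induced by the unfolded protein response, and T cells raise chaperone levels when they become activated and grow.

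The array medians lay between 53.6 and 56.9 in linear intensity. The CD8 T cell genes Cd8a and Cd8b1 read from 12.82 to 13.05 in all 6 arrays. All 7 CD8 T cell genes measured had a log2 fold below 0 (median -0.11), of which Cd3d passed at -0.52 and 3 lay wholly below in sanroque. Of 15 myeloid genes 14 were higher in sanroque (list median log2 fold 2.32), as were 7 of 12 B cell genes (1.60) and 7 of 11 cell cycle genes (0.70) in the limma test over all genes. So were 2 of 5 CD4 T cell genes (0.80) and 2 of 4 NK cell genes (0.86), against 3.26% of all genes. Cd44 RNA read from 5.98 to 6.43 in wild type and from 7.34 to 7.90 in sanroque, although both groups were sorted for low surface CD44. The part of other cells, of cycling and of the Cd44 difference in the results below was not tested. In bulk RNA fewer cells of a type and less RNA per cell cannot be told apart. Sanroque replicate 1 read 11.20 for Xist and the other 5 arrays read from 4.02 to 4.17, so that this array alone carried the female transcript. For the Y-linked genes Eif2s3y, Uty and Kdm5d it read 4.26, 3.92 and 4.87. The other 5 arrays read from 9.77 to 10.19, 8.57 to 9.06 and 8.21 to 8.62 for them. By these genes sanroque replicate 1 was female and the other 5 samples were male. The part of sex in the results below was not tested. Wild type replicate 2 had the highest B cell and myeloid list medians of its group, 7.97 and 6.62.

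Promoter windows are shown for 5 members that carry heat shock or ER stress element letters before their start. They are Hsph1, which varied most between arrays, Hspe1, whose 3 copies overlap, and all 3 members with the ER stress element, of which Hspa5 and Hsp90b1 separated between the genotypes and Dnajc3 did not. Of the 82 genes, 68 had a window in the RefSeq promoter table (assembly GRCm38.p6), which spans 250 bases before and 50 bases after a gene's start. Each sequence below gives the 250 bases before the first start listed, 5′ to 3′ on the gene's strand. Capitals mark the heat shock element letters (GAA, any 2 bases, TTC; or TTC, any 2 bases, GAA; each reads the same on both strands) for Hsph1 at chr5:149636337-149636586 (minus strand) and Hspe1 at chr1:55087898-55088147 (plus strand). For Hspa5 at chr2:34771840-34772089 (plus strand), Hsp90b1 at chr10:86705445-86705694 (minus strand) and Dnajc3 at chr14:118937682-118937931 (plus strand) they mark the ER stress element (CCAAT, any 9 bases, CCACG) on either strand.
Hsph1: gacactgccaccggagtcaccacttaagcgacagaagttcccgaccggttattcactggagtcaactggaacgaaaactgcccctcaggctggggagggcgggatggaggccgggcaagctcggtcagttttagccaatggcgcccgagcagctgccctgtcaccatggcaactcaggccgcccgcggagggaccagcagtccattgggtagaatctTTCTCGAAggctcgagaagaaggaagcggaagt
Hspe1: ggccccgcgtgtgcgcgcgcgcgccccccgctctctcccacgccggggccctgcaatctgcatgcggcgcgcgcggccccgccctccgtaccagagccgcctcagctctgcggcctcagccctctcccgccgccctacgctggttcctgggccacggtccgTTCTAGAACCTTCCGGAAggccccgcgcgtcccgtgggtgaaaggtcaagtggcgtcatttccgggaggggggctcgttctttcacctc
Hspa5: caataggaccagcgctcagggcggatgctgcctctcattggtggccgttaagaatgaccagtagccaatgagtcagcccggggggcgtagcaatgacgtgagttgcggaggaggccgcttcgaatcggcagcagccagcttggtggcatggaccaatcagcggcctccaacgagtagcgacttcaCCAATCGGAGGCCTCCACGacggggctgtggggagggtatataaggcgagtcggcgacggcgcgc
Hsp90b1: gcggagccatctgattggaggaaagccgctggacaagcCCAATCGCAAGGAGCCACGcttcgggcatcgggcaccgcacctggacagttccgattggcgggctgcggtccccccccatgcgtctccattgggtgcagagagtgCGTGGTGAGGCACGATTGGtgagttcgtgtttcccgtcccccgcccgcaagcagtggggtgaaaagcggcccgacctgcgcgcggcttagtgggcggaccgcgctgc
Dnajc3: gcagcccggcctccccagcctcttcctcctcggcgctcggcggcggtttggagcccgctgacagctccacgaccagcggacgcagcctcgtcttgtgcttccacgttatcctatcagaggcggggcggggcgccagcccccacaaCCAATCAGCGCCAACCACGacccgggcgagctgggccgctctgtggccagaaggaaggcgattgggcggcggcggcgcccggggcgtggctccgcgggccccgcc
The heat shock element letters were present in windows of 19 of the 68 members (27.9%) and of 17.0% of the 27025 genes in the table. A run of 3 units with alternating letters, again 2 bases apart and so made of overlapping copies of the shorter element, was present in 4 members, Dnajb6, Hspd1, Hspe1 and Hsph1 (5.88%), and in 0.662% of all genes. In Hsph1 that run lay after the start, outside the stretch printed. In Hspe1 the 3 overlapping copies began 89, 84 and 79 bases before the start, and the same element lay in a window of Hspd1, which is read in the opposite direction from the same stretch. The ER stress element was present in 3 members, Hspa5, Hsp90b1 and Dnajc3 (4.41%), and in 0.137% of all genes. These are matches of letters, not measured binding.

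Few of these genes differed between the genotypes, and no difference was large. In the limma test over all genes, 3 of the 82 were lower in sanroque (3.66%, against 2.51% of all genes), the mitochondrial J protein gene Dnajc15, the TRiC subunit gene Cct8 and Hspbap1, whose product binds the small heat shock protein HSPB1. None was higher, against 3.26% of all genes, and 4 had an unadjusted p below 0.05 in that direction. An unadjusted p below 0.05 in either direction was found for 21 members, 17 of them lower, against 18.9% of all genes. With quantile normalization 2 genes were called higher, Hspa5 and Dnajc13, and 3 lower. Over all 19938 genes 881 were then called higher and 706 lower. The largest change was 1.46-fold, so 0 of the 82 reached 1.5-fold, which 3.94% of all genes did. The log2 fold was below 0 in 58 of the 82 (70.7%, against 61.5% of all genes), with a median of -0.10 against -0.03. In 17 members every sanroque array lay below every wild-type array (20.7%, against 13.2% of all genes) and in 3 every sanroque array lay above (3.66%, against 9.46%). Of the 82 genes, 63 had a mean level above 6. Among these the 3 lower calls were 4.76%, against 4.98% of all 9750 genes at such levels, and the absence of higher calls stood against 4.81%. The 15 that lay wholly below were 23.8%, against 20.6% of those genes.

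**Figure D1:**
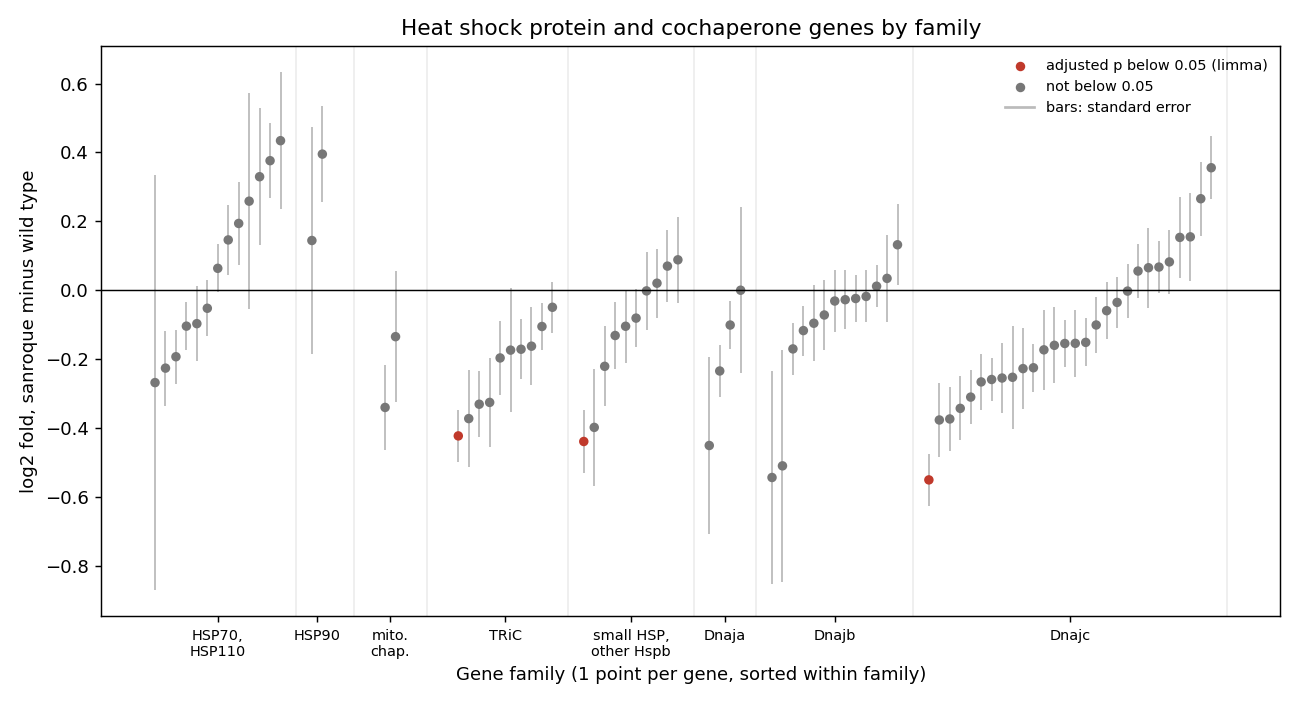
Log2 fold of each of the 82 genes, sanroque minus wild type, grouped by family on the horizontal axis and sorted within it, with the standard error of limma's fit as bars. The 3 red points, Cct8, Hspbap1 and Dnajc15, had an adjusted p below 0.05, and the widest bars belong to Hsph1, Dnajb1, Hsp90aa1, Hspa4l and Dnajb4.

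Dnajc15 encodes MCJ, a J protein of the inner mitochondrial membrane known as a brake on respiratory complex I in CD8 T cells. It gave 10.37, 10.50 and 10.37 on the wild-type arrays and 9.78, 9.95 and 9.87 on the sanroque arrays. All 3 sanroque values lay below the wild-type values, by more than the spread within either group. The means were 10.41 ± 0.08 and 9.86 ± 0.09 (SD, n = 3 each), a log2 difference of -0.55 ± 0.08 (adjusted p = 0.0124 in limma), or 1.46-fold lower. The call was lost without wild type replicate 1, where the log2 fold was -0.57 and the adjusted p = 0.0644 in limma, and it held when any other single array was left out.

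Cct8 encodes the theta subunit of TRiC, which folds actin and tubulin. It gave 11.17, 11.10 and 11.06 on the wild-type arrays and 10.61, 10.68 and 10.79 on the sanroque arrays, with no overlap. The log2 fold was -0.42 ± 0.07 (adjusted p = 0.0245 in limma). Hspbap1 gave 8.20, 8.10 and 8.13 on the wild-type arrays and 7.76, 7.53 and 7.82 on the sanroque arrays, again with no overlap. This amounted to a log2 fold of -0.44 ± 0.09 (adjusted p = 0.0394 in limma). Cct8 did not pass when wild type replicate 1 or 2 or sanroque replicate 1 or 2 was left out (adjusted p from 0.0707 to 0.122 in limma), and Hspbap1 did not pass when any array but sanroque replicate 3 was left out (0.0761 to 0.164). A score of B cell and myeloid markers did not overlap between the genotypes, so that it and the genotype cannot be told apart, and with it as a covariate 0 of the 19938 genes passed in limma (2562 had an unadjusted p below 0.05). The log2 folds were then -0.75 ± 0.27 for Dnajc15, -0.48 ± 0.27 for Cct8 and -0.58 ± 0.33 for Hspbap1.

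**Figure D2:**
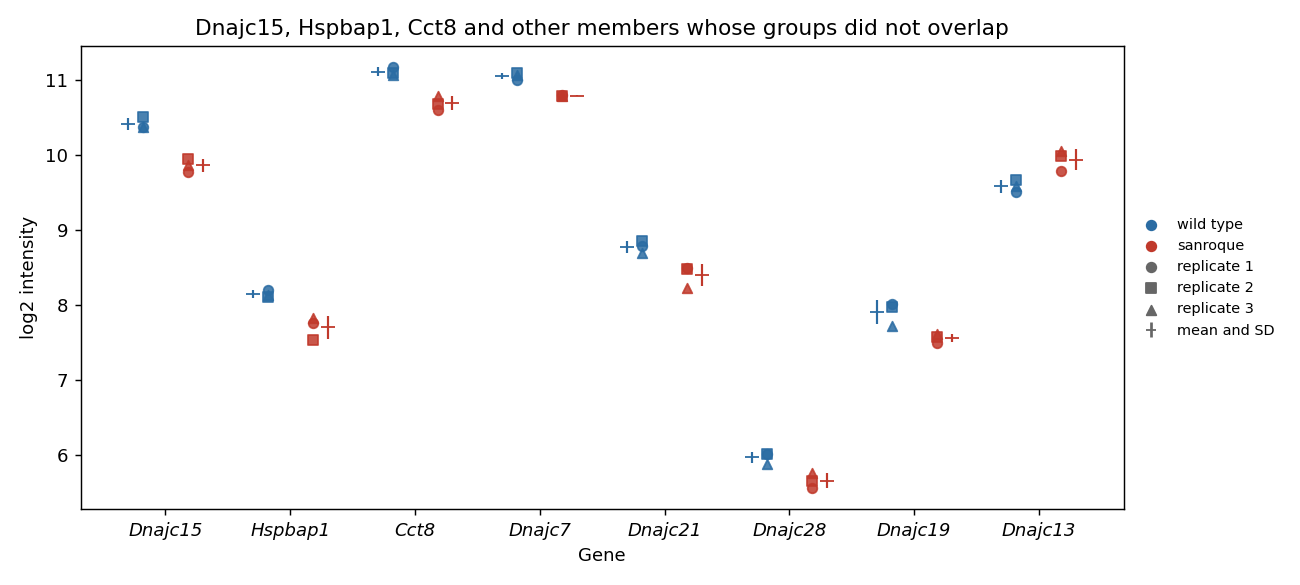
Log2 intensity of 8 members on each array, wild type in blue and sanroque in red, with the replicate number as the marker shape and the mean and SD of each group beside the points. In Dnajc15, Hspbap1, Cct8, Dnajc7, Dnajc21, Dnajc28 and Dnajc19 all sanroque points lie below the wild-type points, and in Dnajc13 they lie above; levels of different genes are not comparable.

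The J protein genes outside Dnajc15 held most of the other members that separated without passing. Of the 28 Dnajc genes, 10 lay wholly below in sanroque, Dnajc15 included, and 1, Dnajc13, wholly above, while over all genes 13.2% lay wholly below and 9.46% wholly above. Of the 28, 23 had a mean level above 6, and over all genes at such levels 20.6% lay wholly below and 13.5% wholly above. Dnajc28, among the 10, had a lower mean level of 5.81. The examples that follow were chosen after their values were seen. Dnajc7, a cochaperone with TPR repeats that links HSP70 and HSP90, gave 11.00, 11.09 and 11.06 on the wild-type arrays and 10.80, 10.79 and 10.79 on the sanroque arrays. The gap was small but the arrays of each group were close together, with a log2 fold of -0.26 ± 0.06 (adjusted p = 0.0581 in limma). Dnajc21, a factor of ribosome maturation, had a log2 fold of -0.37 ± 0.09 (adjusted p = 0.0647 in limma). Dnajc28 had one of -0.31 ± 0.08, Dnajc12 of -0.38 ± 0.11 and Dnajc24, which takes part in diphthamide synthesis, of -0.23 ± 0.07. Dnajc19, a J protein of the mitochondrial import motor, had one of -0.34 ± 0.09, and none of these 4 passed. Smaller separations in the same direction were seen for Dnajc4 (-0.27), Dnajc9, a histone chaperone (-0.15), and Dnajc17 (-0.15).

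Dnajc13 encodes the endosomal J protein RME-8. It gave 9.50, 9.67 and 9.58 on the wild-type arrays and 9.78, 9.99 and 10.05 on the sanroque arrays, and so lay wholly above (log2 fold 0.36 ± 0.09, adjusted p = 0.0727 in limma). Of its 15 probe sets the highest in mean was used, and 14 of the 15 had a log2 fold above 0. Dnajc3, the inhibitor of the kinase PKR in the ER, read from 10.93 to 11.00 in wild type and from 10.87 to 11.09 in sanroque, and its log2 fold was -0.00 ± 0.08. Among the Dnaja genes, Dnaja2 lay wholly below with a log2 fold of -0.23 ± 0.08, and among the Dnajb genes Dnajb6, a suppressor of protein aggregation, did with -0.17 ± 0.08. Neither passed (adjusted p = 0.136 in limma and 0.294). The probe sets that the annotation gives to both Dnajb6 and Gm4247, outside the counts, read higher than that of Dnajb6 alone. Their groups overlapped, with log2 folds from -0.13 to -0.03.

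The TRiC genes leaned one way. TRiC is a double ring of 8 different subunits, encoded by Tcp1, Cct2, Cct3, Cct4, Cct5, Cct6a, Cct7 and Cct8, and all 8 had a log2 fold below 0, from -0.42 to -0.05 with a median of -0.25. Over all genes above level 6, 58.9% had a log2 fold below 0 and 20.6% lay wholly below, as did 2 of these 8. Only Cct8 passed the test, while 4.98% of all genes above level 6 were called lower. Cct5 also lay wholly below, with 11.47, 11.36 and 11.19 on the wild-type arrays and 10.94, 10.95 and 11.13 on the sanroque arrays (log2 fold -0.33 ± 0.10, adjusted p = 0.103 in limma). Cct3 at -0.37 ± 0.14 and Cct7 at -0.33 ± 0.13 overlapped between the groups. Tcp1 had a log2 fold of -0.16 ± 0.11. Cct2 was the least changed at -0.05 ± 0.07, and this sign turned with quantile normalization and without sanroque replicate 1. The testis-type subunit genes Cct6b and Cct8l1 read below 5 on every array, near the low end of the scale, so that a fold would be compressed there. Sanroque replicate 3 was the highest of its group in all 8 and sanroque replicate 1 the lowest in every one but Cct3. Over the 63 members above level 6 these arrays took those places in 37 and 35 genes, and over all genes at such levels in 50.1% and 43.9%.

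**Figure D3:**
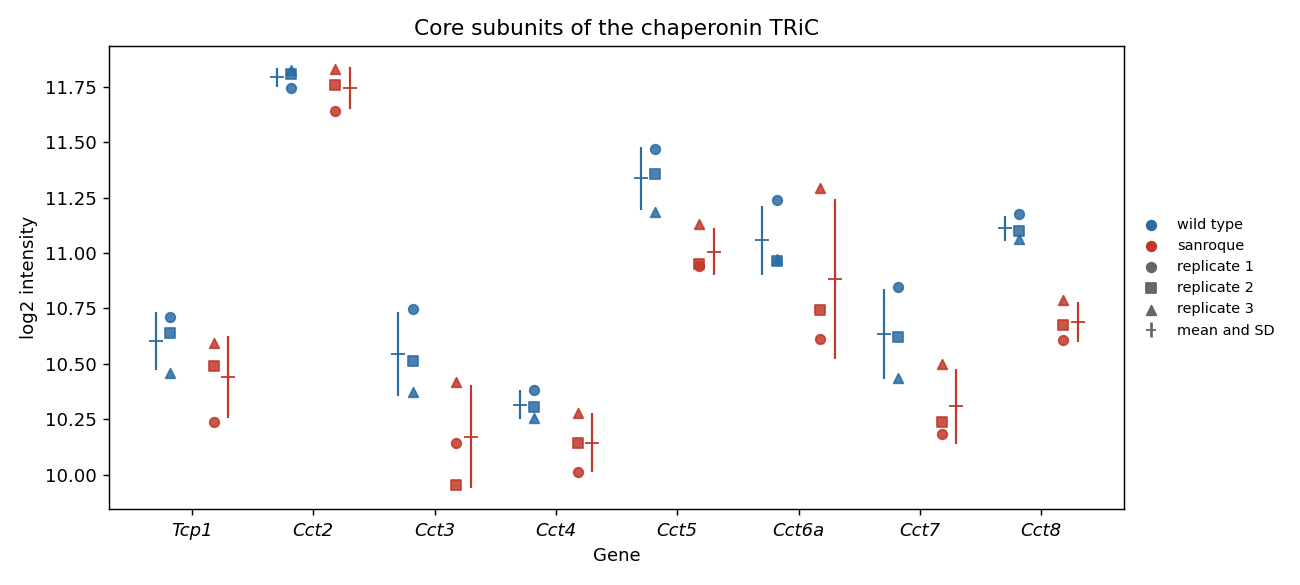
Log2 intensity of the 8 TRiC subunit genes on each array, wild type in blue and sanroque in red, with the mean and SD of each group beside the points. Sanroque replicate 1, the red circle, is the lowest red point in every gene but Cct3, and the groups are apart in Cct5 and Cct8; levels of different genes are not comparable.

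Of 9 genes that help TRiC, 8 had a log2 fold below 0 and 1 passed. Over all genes above level 6, 58.9% had a log2 fold below 0 and 4.98% were called lower. Prefoldin hands unfolded actin and tubulin to the ring and phosducin-like proteins modulate it. The gene that passed was Pdcl3, which fell by 0.58 ± 0.09 on the log2 scale (adjusted p = 0.0159 in limma). Another 4 lay wholly below, among them the prefoldin subunit genes Vbp1 (-0.61 ± 0.17), Pfdn6 (-0.59 ± 0.13) and Pfdn2 (-0.40 ± 0.10), which did not pass. The smallest log2 folds were those of Pdcl at -0.02 and Pfdn1 at 0.01. The median log2 fold of the 9 was -0.32, against -0.05 over all genes above level 6, and 5 of the 9 lay wholly below, against 20.6% of those genes.

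The HSP70 and HSP110 genes were mixed, with 7 log2 folds above 0 and 6 below among 13, and 0 passed in either direction (2 had an unadjusted p below 0.05). Hspa8, the constitutive cytosolic HSP70, gave 13.28, 13.16 and 13.00 on the wild-type arrays and 13.12, 13.38 and 13.51 on the sanroque arrays, so that the groups overlapped (log2 fold 0.19 ± 0.12). Its 3 probe sets gave log2 folds from 0.13 to 0.24. Hspa1a, the heat-inducible HSP70, gave 7.64, 6.86 and 7.05 on the wild-type arrays and 7.45, 7.72 and 7.37 on the sanroque arrays. Wild type replicate 1 lay inside the sanroque range, and the log2 fold was 0.33 ± 0.20 (adjusted p = 0.486 in limma). A probe set that the annotation gives to both Hspa1a and Hspa1b, and which was therefore not counted, had group means of 8.50 and 9.10, a difference of 0.60 on the log2 scale, with wild type replicate 1 again inside the sanroque range. Hspa9, the mitochondrial HSP70, had a log2 fold of -0.23 ± 0.11. Hspa14, a ribosome-associated HSP70, lay wholly below at -0.19 ± 0.08. Hspa2, Hspa1l, Hspa12a and Hspa12b had mean levels at or below 6.

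Hspa5 and Hsp90b1, both of the ER, were the only members besides Dnajc13 that lay wholly above in sanroque, and neither passed. Hspa5 encodes BiP, the HSP70 of the ER, and gave 10.77, 10.85 and 10.71 on the wild-type arrays and 10.95, 11.15 and 11.35 on the sanroque arrays. The log2 fold was 0.38 ± 0.11 (adjusted p = 0.103 in limma). Hsp90b1 encodes GRP94, the HSP90 of the ER that folds integrins and Toll-like receptors. It gave 11.52, 11.48 and 11.21 on the wild-type arrays and 11.56, 11.80 and 12.04 on the sanroque arrays, a gap of only 0.04 between the nearest arrays, with a log2 fold of 0.40 ± 0.14 (adjusted p = 0.168 in limma). Hspa13, a further HSP70 of the ER, had the largest log2 fold of its family, 0.43 ± 0.20, but its groups overlapped. The 10 J protein genes of the ER did not pass, with log2 folds from -0.23 ± 0.12 in Dnajc18 to 0.27 ± 0.11 in Dnajc16. Among them, Dnajb9 had a log2 fold of 0.03 ± 0.13, Dnajb11 of -0.12 ± 0.07 and Dnajc10 of 0.08 ± 0.09. Dnajc3, which shares the ER stress element letters with Hspa5 and Hsp90b1 in the windows printed above, had -0.00.

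Among 21 other genes of ER folding and the unfolded protein response, 4 were higher in the limma test over all genes, against 4.81% of all genes above level 6. In the lower direction 0 passed and 2 had an unadjusted p below 0.05. Of the 21, 12 lay wholly above, against 13.5% of all genes above level 6, and 1, Herpud1, lay wholly below (-0.22), against 20.6%. The log2 fold was above 0 in 17 of the 21, and below 0 also in Atf4 (-0.32), Manf (-0.13) and Sec63 (-0.12). Atf6, a transducer of the unfolded protein response, rose by 1.18 ± 0.19 on the log2 scale (adjusted p = 0.0173 in limma). The disulphide isomerase gene Pdia4 rose by 0.48 ± 0.09, Creld2 by 0.40 ± 0.09 and Syvn1, a ubiquitin ligase of ER-associated degradation, by 0.32 ± 0.06. Hyou1, the HSP110 of the ER, did not pass at 0.60 ± 0.15 (adjusted p = 0.0640 in limma). Plasma cells are rich in ER chaperones, and the plasma cell genes Jchain and Mzb1 were higher in sanroque by 3.28 and 1.81. Of the 6 plasma cell genes measured 3 rose, the list median ran from 5.17 to 5.71 in wild type and from 5.58 to 6.17 in sanroque, and Sdc1, Tnfrsf17 and Derl3 read from 4.66 to 5.83 on every array without passing. The part of such cells in the ER values was not tested. With the score of B cell and myeloid markers as a covariate the log2 folds were 0.00 ± 0.37 for Hspa5, -0.06 ± 0.48 for Hsp90b1 and -0.30 ± 0.69 for Hspa13, in a fit where no gene passed.

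**Figure D4:**
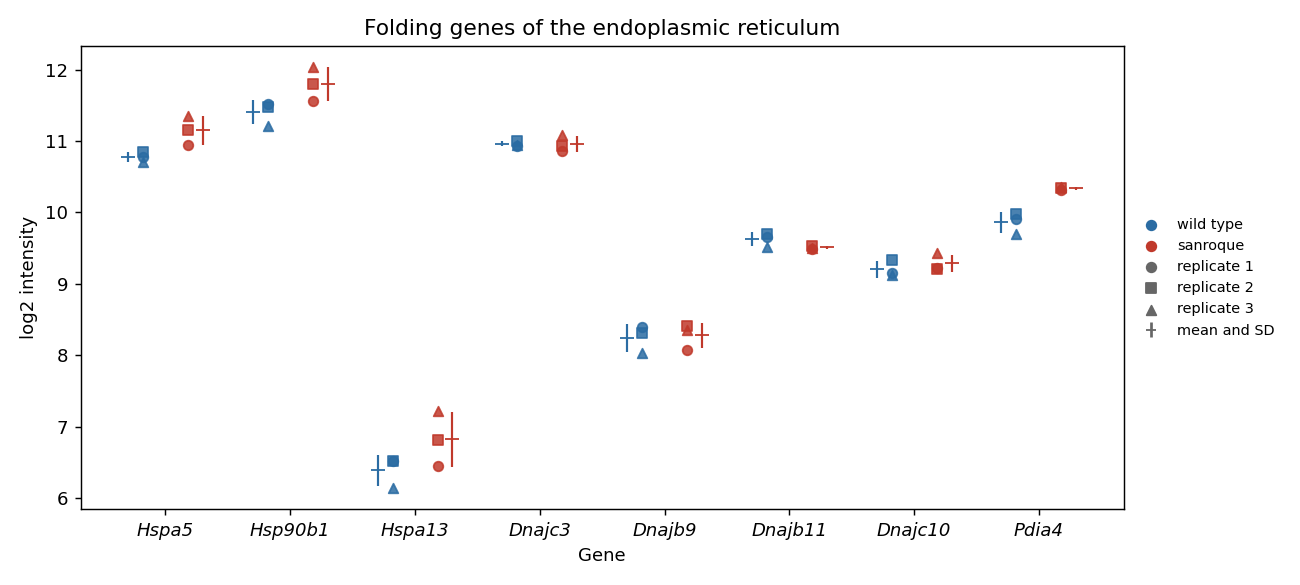
Log2 intensity of 7 ER members and of Pdia4, an ER gene outside the member list, on each array, wild type in blue and sanroque in red, with the mean and SD of each group beside the points. All red points lie above the blue ones in Hspa5, Hsp90b1 and Pdia4, while the groups overlap in the other 5 genes; levels of different genes are not comparable.

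The mitochondrial members leaned lower. By location, a grouping made after the values were seen, 10 of the 82 genes act in mitochondria, and 9 of them had a log2 fold below 0, with a median of -0.26 and 1 call, Dnajc15. Over all genes 61.5% had a log2 fold below 0 and 2.51% were called lower. The 13 members of the ER, grouped in the same way, had 8 log2 folds above 0, a median of 0.08 and 0 calls, with an unadjusted p below 0.05 for Hspa5, Hsp90b1 and Dnajc16. Hspe1 encodes the HSP10 lid and Hspd1 the HSP60 ring of the mitochondrial chaperonin. Hspe1 gave 11.98, 11.92 and 11.53 on the wild-type arrays and 11.47, 11.39 and 11.55 on the sanroque arrays, with wild type replicate 3 inside the sanroque range (log2 fold -0.34 ± 0.12, adjusted p = 0.184 in limma). It passed at -0.48 when wild type replicate 3 was left out (adjusted p = 0.0340 in limma), where 454 of all genes were called lower. Leaving out the array that overlapped sets the groups apart, so this gives no separate support. Hspd1, transcribed from the same stretch, had a log2 fold of -0.13 ± 0.19 and ranged from 10.70 to 11.40 within sanroque. Both genes have 2 probe sets with like folds, and near-identical processed copies of such genes cannot be told apart by an array. Of 10 other mitochondrial folding and protease genes 0 passed, with 4 lower and 0 higher at an unadjusted p below 0.05. Of all 9750 genes above level 6, 1946 were lower and 1197 higher at such a p. Clpp, the subunit of a matrix protease, had the largest fall of the 10 in value, a log2 fold of -0.32 ± 0.09 with the groups apart. Grpel2, a nucleotide exchange factor for mitochondrial HSP70, had the smallest p of the 10 (-0.28 ± 0.07, adjusted p = 0.0753 in limma).

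The widest differences among these genes were between arrays of the same genotype. Hsph1 encodes HSP110, the exchange factor that returns HSP70 to its open state. It gave 11.22, 10.65 and 10.36 on the wild-type arrays and 9.31, 10.20 and 11.92 on the sanroque arrays. Sanroque replicate 1 was the lowest and sanroque replicate 3 the highest of all 6 arrays, 6.12-fold apart, while the genotype means differed by -0.27 ± 0.60 (adjusted p = 0.910 in limma). The SD within groups was 0.99, which ranked 6 among the 9750 genes above level 6. Hsp90aa1, the inducible cytosolic HSP90, gave 12.23, 11.82 and 11.59 on the wild-type arrays and 11.52, 11.75 and 12.81 on the sanroque arrays. Its 3 probe sets ordered the arrays alike, and its log2 fold was 0.14 ± 0.33. Dnajb1, the main J protein partner of inducible HSP70, gave 10.38, 9.88 and 9.48 on the wild-type arrays and 8.74, 9.48 and 9.99 on the sanroque arrays. Sanroque replicate 1 was lowest here too, but wild type replicate 1 was highest, and the log2 fold was -0.51 ± 0.34.

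Dnajb4 and Dnaja1, further J proteins of cytosolic HSP70, had the same order of arrays, with log2 folds of -0.54 ± 0.31 and -0.45 ± 0.26. The dimmer probe set of Dnaja1 did not keep this order, with 9.33, 9.23 and 9.92 on the sanroque arrays. A probe set shared by Dnaja1 and Mir207, outside the counts, had wild type replicate 3 highest of its group and a log2 fold of 0.13. Hspa4l, a relative of Hsph1, ranged from 7.61 in sanroque replicate 1 to 8.92 in sanroque replicate 3. Dnaja4 read 7.94 and 8.98 on these arrays, with a log2 fold of 0.00 ± 0.24. Among the 63 members above level 6, 9 had an SD within groups over 0.3 (14.3%, against 4.95% of all genes at such levels), a threshold chosen after the values were seen. These were Hsph1, Dnajb1, Hsp90aa1, Hspa4l, Dnajb4, Dnaja1, Dnaja4, Hspa13 and Hspa1a. The heat-inducible Hspa1a did not have the array order of Hsph1, and sanroque replicate 3 was the lowest of its group there at 7.37. The order shared by Hsph1, Dnajb1, Hsp90aa1, Dnajb4 and Dnaja1, which puts wild type replicate 1 above 2 above 3 and sanroque replicate 3 above 2 above 1, was read from these arrays and occurred in 18 of the 63 members (28.6%) and 6.85% of all genes above level 6. Without sanroque replicate 1, the array with the Xist transcript, the log2 fold of Hsph1 was 0.32, and without sanroque replicate 3 that of Hsp90aa1 was -0.25.

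**Figure D5:**
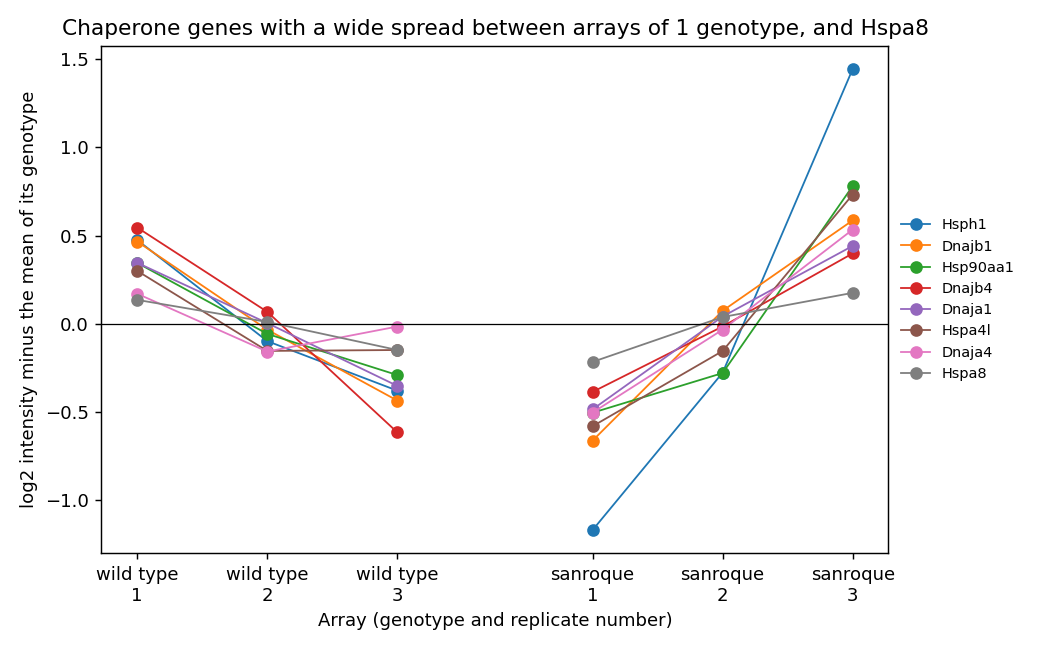
Log2 intensity of 8 chaperone genes minus the mean of that gene in its genotype, by array; lines join values of 1 gene within a genotype and stand for no order of the replicates. Sanroque replicate 1 lies below and sanroque replicate 3 above its group mean in every gene shown, with Hsph1 farthest out, and wild type replicate 1 lies above its group mean. Hspa13 and Hspa1a, whose SD within groups was over 0.3, are not shown, and in Hspa1a sanroque replicate 3 was the lowest of its group.

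Of 26 cochaperones without a J domain measured, 1 passed, Stub1, which encodes the ubiquitin ligase CHIP that marks chaperone clients for degradation. It fell by 0.41 ± 0.09 on the log2 scale (adjusted p = 0.0454 in limma). Over all genes 2.51% were called lower, and over those above level 6 it was 4.98%. Chordc1, an HSP90 partner, gave 10.12, 9.61 and 8.98 on the wild-type arrays and 8.36, 9.11 and 10.26 on the sanroque arrays. Ahsa2, a gene related to the HSP90 activator Ahsa1, gave 8.88, 8.27 and 7.56 on the wild-type arrays and 7.08, 7.60 and 8.84 on the sanroque arrays. Both were chosen for their spread, and their lowest and highest arrays within each genotype are those of Hsph1. The array order of Hsph1, itself read from these arrays, occurred in 8 of the 25 above level 6 (32%, against 6.85% of all genes at such levels). Of the 25, 7 had an SD within groups over 0.3, Ahsa2, Chordc1, Stip1, Ahsa1, St13, Fkbp4 and Ptges3. All 7 had the order of Hsph1, against 10.8% of the 483 genes above level 6 with such an SD. The 483 include these 7 and the 9 members with such an SD. A list of 12 early response genes that rise with cell handling, such as Fos and Jun, had array medians from 7.75 to 7.85 in wild type and from 8.04 to 8.24 in sanroque, highest in sanroque replicate 2. In limma 0 of its genes passed (5 had an unadjusted p below 0.05). Of the 12, 4 lay wholly above, among them Jun (1.34) and Dusp1 (0.92), and 1, Egr1, lay wholly below (-0.33). Over all genes 9.46% lay wholly above and 13.2% wholly below. The part of handling in the array pattern was not tested. Of 3 genes measured for heat shock factors and their regulators, 1 passed, Hsbp1, and 2.51% of all genes were called lower. Hsbp1, which encodes a small protein that binds heat shock factor, fell by 0.36 ± 0.08 on the log2 scale (adjusted p = 0.0477 in limma). The heat shock factor genes Hsf2 and Hsf4 had log2 folds of -0.14 ± 0.13 and 0.01 ± 0.11. Hsf1 was not analysed here.

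Of the 10 genes with Hspb symbols 5 had a mean level at or below 6, and Hspb1, the best known of them, read from 4.52 to 4.92 in wild type and from 4.60 to 4.80 in sanroque with a log2 fold of -0.00 ± 0.11. Hspbp1, which is no small heat shock protein but an exchange factor for HSP70, gave 9.15, 9.05 and 8.88 on the wild-type arrays and 8.48, 8.38 and 9.02 on the sanroque arrays, with sanroque replicate 3 inside the wild-type range (log2 fold -0.40 ± 0.17). Leaving that array out gave -0.60 (adjusted p = 0.0265 in limma), where 728 of all genes were called lower. As that array was the one that overlapped, its removal sets the groups apart and gives no separate support. The J protein genes Dnajb3, Dnajb7, Dnajc5b and Dnajc5g likewise read below 4.3 on every array.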

How the data were processed

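RNA of CD44-low CD8+ T cells was measured on 6 Affymetrix arrays, 3 per genotype. Linear intensities, from 9.56 to 31996, are what the authors deposited for each probe set; Partek is named as the software per the submitters' processing notes, and the background correction, summarisation and normalization behind these intensities were not stated in any label or header used. Intensities were taken to log2. Of 35399 probe sets, the platform annotation gave 1 gene symbol to 21789, several to 1621 and none to 11989; only the first kind was used, and 19856 of the 19938 genes matched the RefSeq gene table. Each gene was read from its probe set of highest mean level, so that the 82 genes rest on 1 probe set each out of 105. Sanroque was compared with wild type by limma 3.58.1 (lmFit and eBayes, R 4.3.3, two-sided) over all genes, with Benjamini-Hochberg adjustment and a threshold of 0.05; errors of log2 folds are limma's moderated standard errors. In 20 simulated sets with 200 changed genes among 19938, changes of 0.5 and 1 on the log2 scale were recovered in 57.5% and 98.4%, and 5.73% of calls were false. The simulated noise was independent between genes and arrays and held no deviation shared by the genes of an array. In the data 650 genes were called higher and 501 lower, more than the 200 changed in each simulated set. Recovery was averaged over genes drawn at random and does not describe members of wide spread such as Hsph1. These rates may therefore differ from those in the measured arrays. The number of arrays limits the precision, and array folds can be compressed at low signal. Plots used Python 3.11.15 and matplotlib 3.10.9.

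The members, gene lists and tests were chosen with earlier results of these data known. Named genes are every called member, those of each family with the largest log2 fold, the smallest p and the highest mean level, and a list of well-known chaperone genes; others are named where a count or a pattern rests on them, and were chosen after their values were seen. The J domain motif in protein sequences was not analysed here, and neither were genes with no probe set of a single symbol, such as Hsp90ab1. Alternatives covered the probe set rule, a filter on dim genes, quantile normalization, median centring, a trended and robust variance, array weights, a replicate block, each array left out in turn, both doubted arrays left out, a covariate for other cell types, and a digit required after each prefix.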

Additional observations from a re-analysis of the deposited data

How the results depend on the processing

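The 3 lower calls held with the mean of all probe sets, without dim genes, with quantile normalization and with a trended, robust variance; 2 remained with median centring, where Hspbap1 had an adjusted p = 0.0566 in limma. Members called lower numbered 26 with array weights, which ranged from 0.344 to 7.99, and 0 with the replicate block, with the other-cell covariate or without sanroque replicate 1 and wild type replicate 2 together. Over all genes the lower calls then numbered 2735, 30, 0 and 27 against 501. Leaving out 1 array gave 0 to 5, with 0 without wild type replicate 1 (22 over all genes). Members called higher numbered 2 with quantile normalization (Hspa5 and Dnajc13) and 3 with array weights. Over all genes the higher calls then numbered 881 and 1998 against 650. Of the other folding genes, 7 were called as reported, 13 without dim genes, 12 with quantile normalization, 2 with median centring, 35 with array weights, 3 with the replicate block, 0 with the covariate, 1 without both doubted arrays and 0 to 9 with 1 array left out. Same-numbered arrays did not deviate together (r from -0.36 to -0.05), so the numbers were not taken as pairs; adjusted p under the block in limma was 0.0514 for Dnajc15, 0.117 for Cct8 and 0.105 for Hspbap1. A digit required after each prefix left 80 members and 2 lower calls. Signs turned for genes near 0 or with wide spread. With quantile normalization the log2 fold was 0.00485 for Cct2, 0.00977 for Dnajc3 and 0.00598 for Hspb1. With array weights it was -0.33 for Hsp90aa1 and 0.0214 for Hspb1. With the covariate, which does not overlap between the genotypes, it was -0.60 for Hsp90aa1, -0.055 for Hsp90b1, -0.30 for Hspa13 and 0.79 for Hspb1. Without both doubted arrays it was 0.00835 for Cct2, 0.0644 for Dnajc3 and 0.27 for Hsph1. With 1 array left out it ran from -0.093 to 0.00175 for Cct2, from -0.065 to 0.044 for Dnajc3, from -0.25 to 0.40 for Hsp90aa1, from -0.10 to 0.096 for Hspb1, from -0.33 to 0.017 for Hspd1 and from -0.99 to 0.32 for Hsph1. The cause of these changes was not tested.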

Other observations

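Beyond the chaperones, the order of arrays seen in Hsph1, with an SD within groups over 0.3, was shared by 40 other genes above level 6. Lman2l, a relative of an ER cargo receptor, gave 9.37, 8.79 and 8.53 on the wild-type arrays and 7.85, 8.10 and 9.64 on the sanroque arrays. P4ha1, a subunit of collagen prolyl hydroxylase, gave 9.27, 8.74 and 8.52 and then 8.05, 8.55 and 9.88. Both were chosen after their values were seen.

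Probe sets that the annotation gives to a member together with another gene were outside the counts. Of the 10 such probe sets, 2 are shared by Dnajb14 and Pin4, and the one of higher level gave 9.75, 9.74 and 9.62 on the wild-type arrays and 9.39, 9.29 and 9.45 on the sanroque arrays, wholly below. The other one lay wholly below too, while the probe set of Dnajb14 alone had a log2 fold of 0.13.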
